A study of Arabidopsis thaliana with 18 samples.

Results

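Root tips that were cut and kept with L-Kyn for 6 h were compared with uncut tips given L-Kyn for 6 h. The comparison holds 5 of the 18 libraries of the series, 3 of cut and 2 of uncut tips, and covers all 22093 loci of the count table, of which 16354 had enough reads to be tested. All tips came from Arabidopsis thaliana seedlings grown for 7 days. Per the labels, the cut was made 120 µm from the quiescent centre (QC), on its shootward side, and L-Kyn (L-kynurenine) was applied at 100 µM. Every library of both groups carried L-Kyn, so the cut is the labelled difference between them. The label text on the treatment is incomplete, and the order of L-Kyn and the cut is not given. Mock tips, with no L-Kyn, served as a reference, with 2 libraries of cut tips at 6 h and 3 of uncut tips whose labels give no time.

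As background, the QC and the stem cells around it lie near the distal end of the root, covered by the root cap. A cut on the shootward side of the QC leaves this niche and the cap on its distal side. PLETHORA transcription factors and the secreted RGF peptides sustain this niche. A root that has lost its tip can rebuild one from the remaining tissue. Auxin, the hormone that patterns the tip, is made from tryptophan by TAA1-type aminotransferases and YUCCA monooxygenases, and L-Kyn inhibits the aminotransferase step.

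Reads on genes were 2943056 and 3856837 in the uncut tips and 4503955, 1280947 and 2005275 in replicates 1, 2 and 3 of the cut tips. A count of 3 reads, taken here as the floor, equals 0.718 to 2.29 CPM (the read count scaled to library size with TMM factors) in these libraries. Floors and counting intervals cover counting error only. Reads set aside for low alignment quality took 66.3% and 58.3% of the uncut totals and 47.0%, 83.2% and 76.5% of the cut totals, so the groups overlapped in this measure. The source field of L-Kyn uncut replicate 1 calls it cut, against its title, which was used. Over genes, Spearman's rho of that library was 0.951 with uncut replicate 2 and 0.894 to 0.911 with the cut libraries. All 6 h libraries and mock uncut replicates 1 and 2 come before the 3 h libraries and mock uncut replicate 3 in the column order of the deposited counts. These first 9 libraries are called library set A. They were taken to stand apart in their values too, which is not shown here. Outside set A, the second L-Kyn cut library of 3 h was taken to go against its label, with values near those of uncut tips. Values for this are not shown either. Whether replicates were separate batches of seedlings is not stated, and p-values therefore rest on a spread between libraries that could be technical only.

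At 6 h with L-Kyn, cut tips held little or no transcript of the meristem peptide genes RGF2 and RGF3, of the root cap genes SMB and CEL5 and of YUC3. The mitotic genes TPX2, SYP111 and MAD2 were lower as well, and 4 aquaporin genes, 4 peroxidase genes and the cold-responsive KIN1 and KIN2 were higher. In the fit of all libraries 99 genes passed the test (edgeR quasi-likelihood test, Benjamini-Hochberg adjusted p under 0.05), which is 0.605% of the genes tested. Of these 56 (0.342%) were higher and 43 (0.263%) lower in cut tips, and the groups did not overlap for any of the 99. Over all genes tested, 19.0% were higher and 20.3% lower in cut tips without overlap. The 99 genes were picked by a test on the same libraries, so their separation is no further evidence. At an unadjusted p under 0.05 there were 2824 genes. With set A alone, 1766 of 14764 genes passed (12.0%), 950 higher (6.43%) and 816 lower (5.53%), and these included all 99. Without that doubted 3 h library the fit called 560 genes. Leaving out L-Kyn cut replicate 2, cut replicate 3 or uncut replicate 2 took the count of the all-library fit from 99 to 0 each time, with 2539, 1930 and 997 genes at an unadjusted p under 0.05. Leaving out cut replicate 1 or uncut replicate 1 left 25 or 21 genes. The same omissions within set A left 195 to 2721 genes, and 70 of the 99 were still called in the lowest case, without uncut replicate 2.

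**Figure D1:**
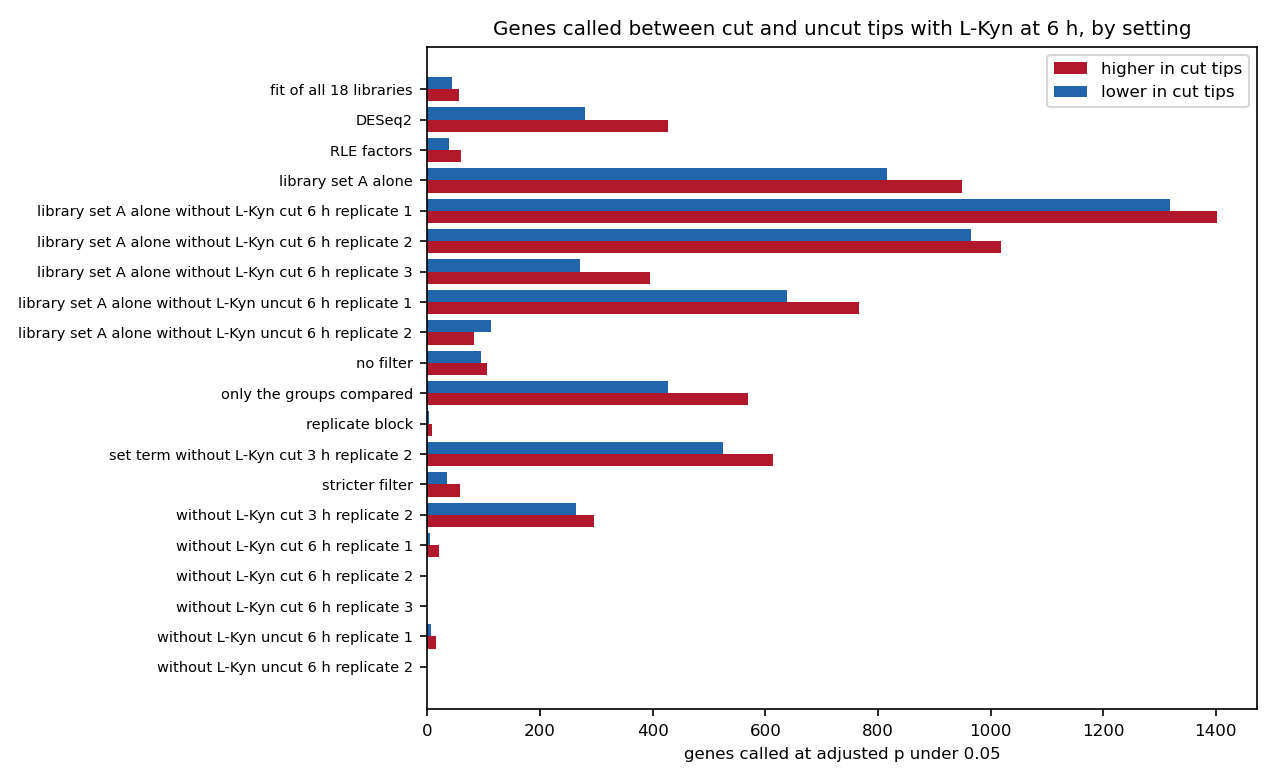
Number of genes called at an adjusted p under 0.05 (horizontal axis) in cut against uncut tips with L-Kyn at 6 h, by fit and setting, with genes higher in cut tips in red and lower in blue. The fit of all 18 libraries calls 56 and 43 genes, set A alone 950 and 816, and 3 of the fits that leave out a library call 0.

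The genes that fell most encode peptides of the meristem. RGF3 and RGF2 encode root meristem growth factor peptides, which act on PLETHORA proteins through receptor kinases. RGF3 stood at 107 and 164 CPM in the uncut libraries and at 0.239, 0 and 0 CPM in the cut ones. RGF2 had 21.3 and 34.2 CPM against no read in any cut library. Both uncut libraries were thus far above all cut libraries for both genes. RGF3 had 1 read in all cut libraries together against 885 in the uncut ones, a ratio of 1040 between pooled CPM values (exact 95% counting interval 186 to 41138), with an edgeR adjusted p of 0.0258. For RGF2 the 182 uncut reads against 0 gave a level at least 71.3-fold lower in cut tips, with the floor of 3 counts taken over the group (edgeR adjusted p = 0.0399).

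PLT1, a PLETHORA factor that maintains stem cells, fell as well. Its level was 34.1 and 32.8 CPM in uncut tips and 0.478, 1.53 and 0.480 CPM in cut tips, without overlap, a log2 fold change of -5.52 ± 1.14 (SE; edgeR adjusted p = 0.0399). The related PLT2 (8.77 and 10.6 against 1.67, 2.29 and 3.36 CPM) was called with set A alone (edgeR adjusted p = 0.00914) and not in the fit of all libraries (0.197). AIL6 (PLT3) stood at 73.9 and 88.2 CPM in uncut and 132, 145 and 130 CPM in cut tips, and was called in neither fit (edgeR adjusted p = 0.297 and 0.0751). Every cut library was below both uncut libraries for PLT1 and PLT2, and above both for AIL6. UPB1, a bHLH factor known to regulate peroxidase genes where cells leave the division zone, went up from 15.5 and 3.16 CPM to 44.0, 65.8 and 47.0 CPM (log2 fold change 2.49 ± 0.53, edgeR adjusted p = 0.0406). The UPB1 log2 fold change was 1.76 without uncut replicate 2 and 4.08 without uncut replicate 1, and its call was lost in set A without uncut replicate 2.

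Of 16 tested genes of the stem cell niche and meristem peptide list, 1 was called higher and 3 lower, beside 0.342% and 0.263% of all genes tested. Their median log2 fold change was -0.31, beside -0.00 over all genes tested. As with all gene lists here, members were chosen with earlier results of these data known, so list counts and medians are descriptions. WOX5, the homeobox gene that marks the QC, had 2 reads in the uncut and 13 in the cut libraries. Its CPM values, 0.675 and 0 against 0.478, 3.82 and 2.88, overlapped and lay near the floor (ratio 5.53, counting interval 1.25 to 50.5; edgeR adjusted p = 0.345). SCR and SHR, which pattern the ground tissue around the niche, were measured at 36.1 and 38.5 CPM and at 30.7 and 30.5 CPM in uncut tips. In cut tips SCR had 28.5 to 39.8 CPM and SHR 35.5 to 51.7 CPM, and neither passed the test (edgeR adjusted p = 0.968 and 0.488).

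Root cap markers were low in cut tips. SMB, a NAC factor of cap cell maturation, had 20.25 and 20.7 CPM in uncut tips and 1.20, 0.765 and 0.480 CPM in cut tips (log2 fold change -4.46 ± 0.88, edgeR adjusted p = 0.0399). CEL5, a cellulase of the cap, had 115 and 176 CPM against 3.11, 3.06 and 0.480 CPM (-5.97 ± 1.08, edgeR adjusted p = 0.0276). For both genes every cut library lay below both uncut libraries. FEZ, which promotes the divisions that renew the cap, had 35 reads in uncut and none in cut tips, at least 13.7-fold lower, and was called with set A alone (edgeR adjusted p = 0.00253). In set A, 5 of the 8 cap genes were called lower (5.53% of all genes), the other 2 being NAC015 and NAC070. The summed level of the list was 207 and 252 CPM in uncut and 16.8 to 24.9 CPM in cut tips, and the median log2 fold change -3.05. CEL3, ARF10 and ARF16 showed log2 fold changes of 0.68, -0.15 and -0.09 and were called in neither fit. Fewer cells of a type and less RNA per cell cannot be told apart in such bulk samples. The cap and the QC lay distal to the cut. Lower levels of their genes may thus reflect lost cells, here and for the meristem genes above, which was not tested.

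Of 6 tested TAA and YUCCA genes 1 was called lower with all libraries, beside 0.263% of all genes tested. YUC3, a YUCCA monooxygenase, fell from 24.0 and 35.1 CPM to 0.957, 1.53 and 1.44 CPM, with no overlap (log2 fold change -4.55 ± 0.92, edgeR adjusted p = 0.0399). YUC7, with 38 reads in uncut and none in cut tips, was at least 14.9-fold lower and called with set A alone (edgeR adjusted p = 0.00231). YUC8 spread over 2.39 to 14.5 CPM in cut tips, around the uncut values of 6.41 and 3.16 CPM, and YUC9 (log2 fold change -1.42 ± 0.81) did not pass the test in the fit of all libraries (edgeR adjusted p = 0.383). TAA1, the aminotransferase that L-Kyn targets, had 5.74 and 5.17 CPM in uncut and 4.78, 3.06 and 6.23 CPM in cut tips, which overlapped (edgeR adjusted p = 0.896). Of 17 tested genes that make tryptophan and other indolic compounds, none was called in the fit of all libraries. With set A alone 1 of 15 was called lower, near the 5.53% of all genes. This gene was ASA1 of tryptophan synthesis (24.6 and 37.4 against 13.4 to 15.3 CPM, edgeR adjusted p = 0.0370).

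Among 14 transport genes LAX2, an auxin influx carrier, fell from 50.6 and 45.1 CPM to 6.94, 5.35 and 7.19 CPM (log2 fold change -2.85 ± 0.63, edgeR adjusted p = 0.0427), without overlap. The efflux carrier PIN4 (24.3 and 20.12 against 8.41 to 12.5 CPM) was lower with set A alone (edgeR adjusted p = 0.0300). Of the transport genes 1 of 14 was called lower with all libraries, beside 0.263% of all genes. With set A alone 3 of 13 were, beside 5.53%. AUX1, the main influx carrier of the root tip, and EIR1 (PIN2) had log2 fold changes of 0.45 ± 0.31 and -0.15 ± 0.31 and passed neither test. None of the auxin response genes was called, of 10 tested with all libraries and 8 with set A alone. Their median log2 fold change was -0.28, and -0.01 in set A without cut replicate 3. IAA19, whose product represses auxin response factors, lay at 0.337 and 1.72 CPM in uncut and 1.67 to 2.29 CPM in cut tips, near the floor. The GH3 family gene AT5G51470, chosen after its values were seen, was among the 43 lower genes (8.77 and 9.20 CPM in uncut tips, 2 reads in all cut libraries together, a ratio of 34.1 with a counting interval of 9.02 to 288).

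**Figure D2:**
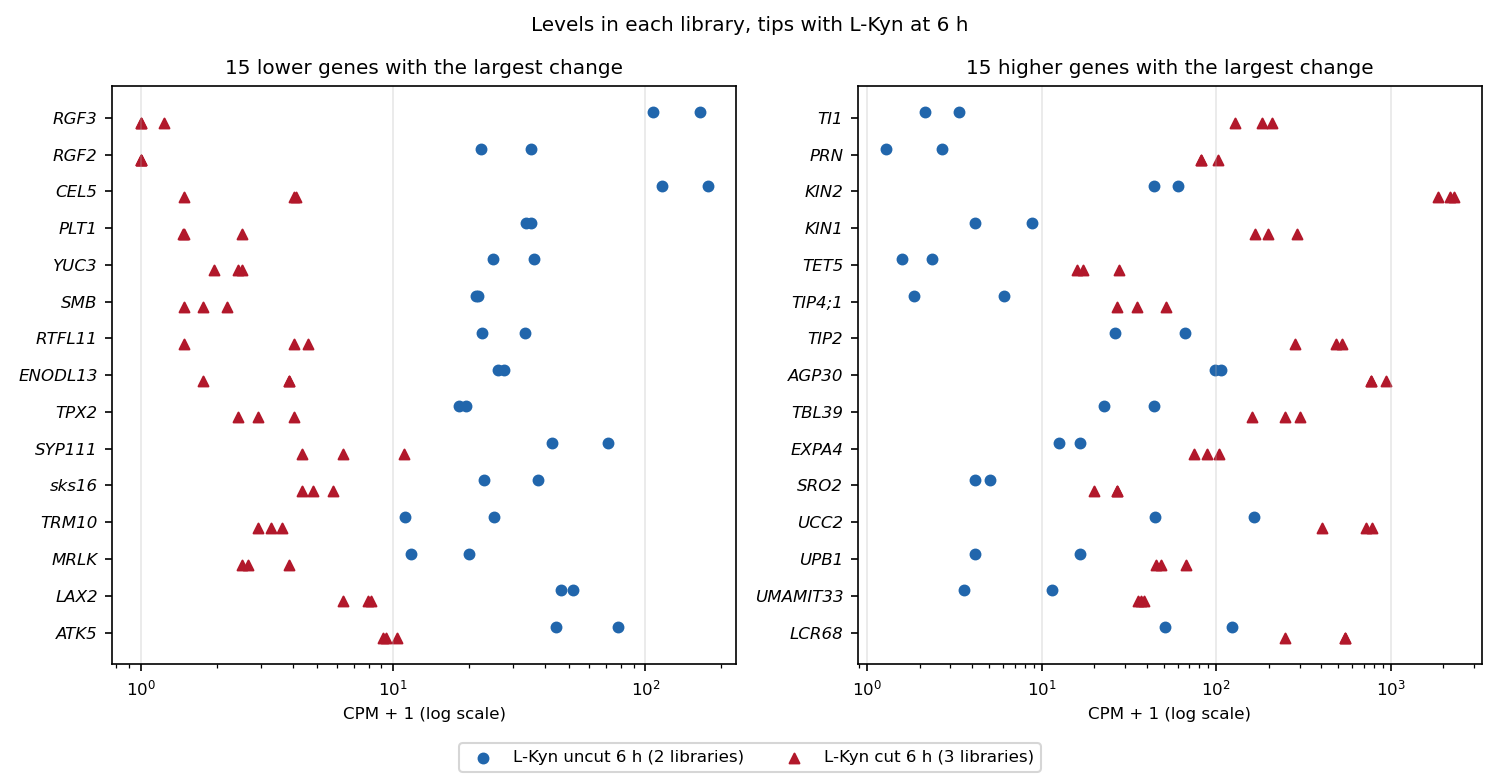
Level of the 15 lower (left) and 15 higher (right) genes with the largest change in each library, as CPM + 1 on a log axis, with blue circles for the 2 uncut and red triangles for the 3 cut libraries with L-Kyn at 6 h. The circles and triangles of a gene do not overlap, which was a condition for choosing these genes. RGF2 and RGF3 sit at the left edge in cut tips, with 0 to 1 read over the group.

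All 28 tested genes of mitosis and cytokinesis had a lower fitted level in cut tips, and 3 of them passed the test. TPX2 organises spindle microtubules, SYP111 (KNOLLE) is the syntaxin that fuses vesicles at the cell plate, and MAD2 belongs to the spindle checkpoint. In plants many such genes carry a core of the letters AACGG in their promoter, the centre of the element bound by MYB3R factors. The 250 bases upstream of SYP111 and MAD2, matched by locus in the RefSeq assembly TAIR10.1, are shown because both hold that core. The window of TPX2, the other called gene, is not shown, so the display does not tell whether the called genes share the core. Capitals mark AACGG or its reverse complement CCGTT, each sequence is written 5′ to 3′ on the strand of the gene, and the windows are chr1:2711001-2711250 (minus strand) and chr3:9502806-9503055 (plus strand).
SYP111: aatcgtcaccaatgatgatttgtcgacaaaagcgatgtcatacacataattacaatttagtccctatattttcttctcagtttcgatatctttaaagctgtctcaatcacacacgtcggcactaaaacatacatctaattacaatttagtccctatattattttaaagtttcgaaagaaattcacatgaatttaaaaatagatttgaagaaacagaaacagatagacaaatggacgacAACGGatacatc
MAD2: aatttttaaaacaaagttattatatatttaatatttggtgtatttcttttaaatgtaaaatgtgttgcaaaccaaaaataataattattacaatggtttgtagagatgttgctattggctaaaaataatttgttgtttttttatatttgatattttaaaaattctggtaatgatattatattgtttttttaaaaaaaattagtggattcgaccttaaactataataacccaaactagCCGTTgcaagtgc

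SYP111 and MAD2 each hold the core at 1 place. On either strand, AACGG occurred in the same window of 16 of the 28 genes on the mitosis list (57.14%). Over all tested genes it occurred in 3606 of 16162 (22.31%). With all libraries the core was in 15 of the 43 genes called lower (34.88%) and 13 of 55 called higher (23.64%). With set A alone it was in 225 of 806 called lower (27.92%) and 172 of 941 called higher (18.28%). These shares are descriptions of the sequence, and no binding was measured. Other motifs were counted in the same windows and their shares are not given.

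TPX2 had 17.2 and 18.4 CPM in uncut tips and 1.44, 3.06 and 1.92 CPM in cut tips (log2 fold change -3.16 ± 0.67, edgeR adjusted p = 0.0406). SYP111 had 41.8 and 70.4 CPM against 10.05, 5.35 and 3.36 CPM (-3.07 ± 0.63, edgeR adjusted p = 0.0399). MAD2 had 52.6 and 96.0 CPM against 14.4, 10.7 and 8.15 CPM (-2.72 ± 0.56, edgeR adjusted p = 0.0399). For these 3 genes all cut libraries lay below both uncut libraries, with uncut replicate 2 the highest of the 5. They were the 3 list members called in the fit of all libraries. All 28 tested members had a negative log2 fold change, from -3.16 to -0.06 with a median of -1.79, and for 24 of them the groups did not overlap, beside 20.3% of all tested genes that were lower without overlap. In set A, 19 of 26 were called lower, beside 5.53% of all genes. The list was chosen with earlier results of these data known, so these counts are descriptions. The mitotic cyclin CYCB1;1 was one of these 19, at 9.79 and 6.90 CPM in uncut and 2.15, 0 and 0.480 CPM in cut tips (edgeR adjusted p = 0.0130, and 0.149 in the fit of all libraries). The kinase genes CDKB1;1 (40.2 and 42.3 against 29.8 to 50.5 CPM) and CDKB2;2 (11.5 and 12.9 against 3.82 to 7.66 CPM) passed neither test.

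**Figure D3:**
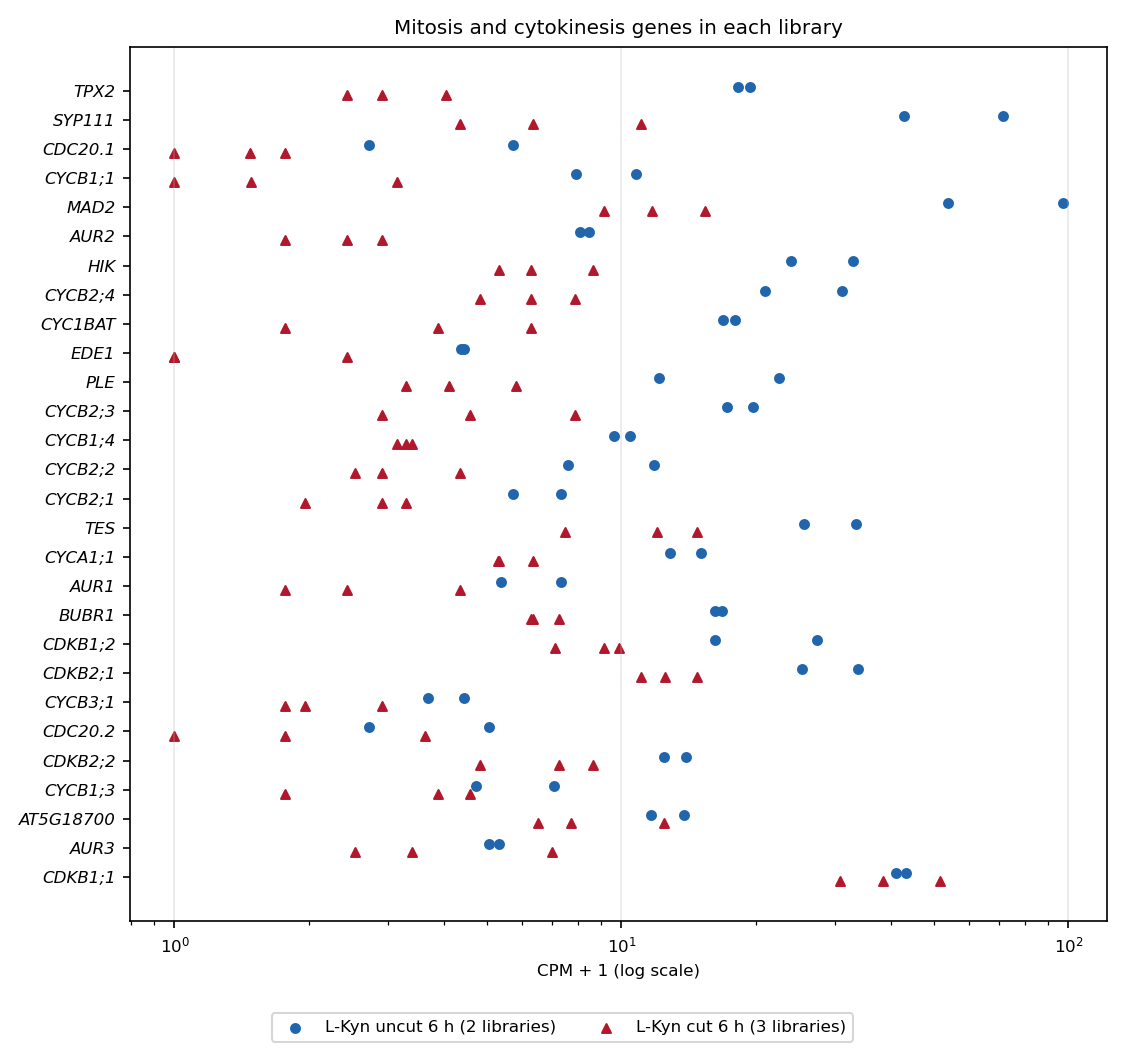
Level of the 28 tested mitosis and cytokinesis genes in each library, as CPM + 1 on a log axis, with blue circles for the 2 uncut and red triangles for the 3 cut libraries with L-Kyn at 6 h, ordered by log2 fold change. For 24 of the 28 genes every triangle lies left of both circles.

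Off the list, the lower genes also held ATK5, a spindle kinesin (43.2 and 77.0 against 8.15 to 9.33 CPM, log2 fold change -2.79 ± 0.56, edgeR adjusted p = 0.0399). TOPII, the DNA topoisomerase II that untangles chromosomes, and HTA8, a variant histone H2A, were lower too (-2.19 and -2.05), and both were chosen after their values were seen. Of 21 tested DNA replication genes none was called in the fit of all libraries. With set A alone 2 of 21, the helicase subunits MCM2 and MCM6, were called lower, beside 5.53% of all genes. The median log2 fold change of the 21 genes was -0.53 and 18 of the 21 values were negative. Of these genes 12 were lower without overlap, beside 20.3% of all tested genes. Ribosome biogenesis genes had a median of -1.06, which became -0.65 without uncut replicate 2. With set A alone 5 of 8 were called lower, beside 5.53% of all genes. Among the 5 was the nucleolin gene NUC-L1 (646 and 1426 CPM in uncut and 252 to 452 CPM in cut tips). The higher of the uncut values for NUC-L1 came from replicate 2.

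Among called genes with a symbol, TI1, PRN, KIN2, KIN1 and TET5 had the largest rise. TI1, a trypsin inhibitor, stood at 2.36 and 1.15 CPM in uncut tips and at 182, 206 and 127 CPM in cut tips (log2 fold change 6.60 ± 1.18, edgeR adjusted p = 0.0276). PRN, a pirin, had 1.69 and 0.287 CPM against 101, 81.1 and 80.6 CPM (6.47 ± 1.29, edgeR adjusted p = 0.0399). TET5, a tetraspanin of the plasma membrane, had 1.35 and 0.575 CPM against 16.3, 26.8 and 14.9 CPM (4.28 ± 0.74, edgeR adjusted p = 0.0258). All 3 were close to the floor in uncut tips and well above it in each cut library.

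KIN2 and KIN1, small hydrophilic proteins known to accumulate in the cold and with abscisic acid, had the largest change among cold genes. KIN2 rose from 59.4 and 42.8 CPM to 1850.2, 2178.5 and 2286 CPM (5.36 ± 0.94, edgeR adjusted p = 0.0258). KIN1 rose from 7.76 and 3.16 CPM to 165, 198 and 290 CPM (5.32 ± 1.18, edgeR adjusted p = 0.0443). The pair are near-identical neighbours that can share reads, so their separate values are uncertain. Of the 5 other tested genes of the list, LTI78 was called higher with set A alone (4.39 and 5.46 against 13.6 to 19.9 CPM, edgeR adjusted p = 0.0111), whereas COR47 and ERD10 spread widely in cut tips (297 to 920 and 53.8 to 242 CPM) and were not called. With set A alone 3 of 5 tested cold genes, KIN1 and KIN2 included, were called higher, beside 6.43% of all genes. Of 9 heat shock genes tested with all libraries none was called. With set A alone 1 of 8 was called higher, beside the same 6.43%. This gene was HSP17.6II (0.675 and 0.575 against 10.6 to 17.59 CPM, edgeR adjusted p = 0.000377). The mitochondrial chaperones HSP60 and Hsp89.1, chosen after their values were seen, were among the lower genes (-1.58 and -1.39).

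Water channels of the vacuole and plasma membrane were higher in cut tips. TIP2, a tonoplast channel, had 65.5 and 25.3 CPM in uncut and 280, 483 and 520 CPM in cut tips (log2 fold change 3.24 ± 0.67, edgeR adjusted p = 0.0399). TIP4;1 had 5.06 and 0.862 CPM against 34.2, 26.0 and 50.4 CPM (3.66 ± 0.81, edgeR adjusted p = 0.0427). Both groups were separate for each, and uncut replicate 1 was above uncut replicate 2. PIP1B and PIP1C of the plasma membrane, chosen after their values were seen, rose by 2.03 ± 0.44 and 1.79 ± 0.38 on the log2 scale (edgeR adjusted p = 0.0427 and 0.0406). In all, 4 of 20 tested aquaporin genes were called higher and none lower, beside 0.342% and 0.263% of all genes tested. This family and the peroxidase, arabinogalactan and expansin families below were gathered by product name after the called genes were seen, so their counts are descriptions.

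Genes for cell wall proteins were called in both directions. AGP30, an arabinogalactan protein of the root, went from 106 and 96.9 CPM to 771, 772 and 936 CPM (3.03 ± 0.66, edgeR adjusted p = 0.0427). EXPA4, an expansin that loosens walls, went from 15.5 and 11.5 CPM to 103, 87.2 and 73.4 CPM (2.70 ± 0.58, edgeR adjusted p = 0.0413). TBL39, of a family with members that acetylate wall polysaccharides, went from 42.9 and 21.8 CPM to 248, 160 and 299 CPM (2.87 ± 0.50, edgeR adjusted p = 0.0258). The smallest cut value lay above the largest uncut value in each case, which was a condition for naming these genes. Besides CEL5, the pectin lyase-like gene AT4G13710 (-3.81, chosen after its values were seen) and sks16 of the SKU5-similar family (-2.88) were among the lower genes. Calls in the fit of all libraries took in 2 of 38 arabinogalactan, 1 of 16 expansin and 4 of 35 class III peroxidase genes, all higher. With set A alone 21 of 28 class III peroxidase genes were higher and 2 lower, and 14 of 35 arabinogalactan genes higher and 1 lower. Of 14 expansin genes 8 were higher and 2 lower in set A. Over all genes the shares were 6.43% higher and 5.53% lower in set A, and 0.342% higher with all libraries. AT3G01190, a peroxidase, had 13.2 and 0.575 CPM in uncut and 74.9, 105 and 109 CPM in cut tips. Other called genes were SRO2, UCC2 (a copper protein of the wall), UMAMIT33 (of an amino acid transporter family) and LCR68 (a defensin), with log2 fold changes of 2.69, 2.62, 2.48 and 2.37. The value for UMAMIT33 was 1.79 without uncut replicate 2 and 3.84 without uncut replicate 1, and set A without uncut replicate 2 called SRO2 but not UCC2, UMAMIT33 or LCR68. Of the 56 higher genes 29 have no symbol in the reference table. The pair AT4G15630 and AT4G15610, both of family UPF0497 and chosen after their values were seen, were at 2.36 and 0.575 and at 8.77 and 3.16 CPM in uncut tips. In cut tips they reached 121 to 202 CPM and 135 to 148 CPM.

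The 13 tested regeneration and tissue reunion genes with a matched name had a median log2 fold change of 1.58. None of them was called in the fit of all libraries. With set A alone 7 of 13 were called higher and 1 lower, beside 6.43% and 5.53% of all genes. HCA2, a Dof factor of vascular tissue, had 1.69 and 1.72 CPM in uncut and 10.5, 28.3 and 10.07 CPM in cut tips (edgeR adjusted p = 0.00273 with set A alone and 0.0575 with all libraries). NAC096, which acts in the joining of cut tissue, had 0.675 and 0.575 CPM against 5.02, 13.8 and 6.71 CPM (0.00641 and 0.0715 by the same edgeR tests). For both, cut replicate 2 was the highest library and the groups did not overlap. ERF115 (AT5G07310 in the table), an AP2/ERF factor of stem cell replacement, and XTH20, a xyloglucan enzyme, had no read in uncut tips and were at least 6.52-fold and 10.8-fold higher in cut tips. The 1 lower gene was AIL5, of the PLETHORA family. PAT1 and RAP2.4 (WIND1), known from tip regrowth and callus formation, had log2 fold changes of 0.35 ± 0.43 and 0.22 ± 0.39 and passed neither test. AT5G61890, an AP2/ERF-type (integrase-type) DNA-binding protein, was written in this list as ERF114 and dropped from its counts for an unmatched name. It was called in the fit of all libraries, rising from 1.01 and 1.44 CPM to 111, 106 and 83.4 CPM (6.29 ± 1.43, edgeR adjusted p = 0.0490).

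Nucleases known from cell death were among the largest differences that missed the threshold with all libraries. RNS1, a secreted ribonuclease, had 1.01 and 0 CPM in uncut and 73.0, 47.4 and 50.4 CPM in cut tips, a pooled ratio of 134 (counting interval 45.5 to 651). ENDO2, an endonuclease, had 1.01 and 0 CPM against 28.7, 45.1 and 29.3 CPM, a ratio of 68.1 (23.0 to 332). The edgeR adjusted p was 0.0558 and 0.0548 with all libraries and 5.85e-06 and 2.65e-05 with set A alone. Of the other 3 tested members scpl48, a carboxypeptidase-like gene, was called lower with set A alone (9.79 and 6.61 against 0.718 to 3.06 CPM, edgeR adjusted p = 0.0254). XCP1, a protease of dying xylem cells, was called in neither fit (0.575 to 1.01 against 1.91 to 9.11 CPM).

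Genes of flavonoid and phenylpropanoid synthesis were called with set A alone, 9 of 11 higher, and none with all libraries. Set A alone called 6.43% of all genes higher. FLS1, flavonol synthase, had 257 and 140 CPM in uncut and 845, 1223 and 894 CPM in cut tips (log2 fold change 2.31 ± 0.84 with all libraries, edgeR adjusted p = 0.160, and 0.000535 with set A alone). All 11 log2 fold changes were positive, with a median of 1.39. Detoxification genes, glutathione transferases in the main, had 6 of 15 called higher with set A alone and a median of 0.86, and reads can be shared among their close copies. In the ethylene list, also with set A alone, ACS2 and ACS7, which make the precursor ACC, were higher and ACO1 and EFE (ACO4), which turn ACC into ethylene, were lower. ACS2 had 3 reads in uncut and 64 in cut tips (ratio 18.1, counting interval 5.94 to 90.3), and EFE had 43.9 and 23.9 CPM in uncut and 5.28 to 10.3 CPM in cut tips.

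Of 18 early wound and touch genes none was called with all libraries. With set A alone 2 of 15 were called higher and 1 lower, beside 6.43% and 5.53% of all genes. TCH3, a calmodulin-like touch gene, was one of the 2, with 21.3 and 12.9 CPM against 52.4, 136 and 87.8 CPM (edgeR adjusted p = 0.00220). In the jasmonate list 1 of 7 genes, AOC3 of jasmonate synthesis, was higher with set A alone (73.2 and 44.8 against 130 to 216 CPM), though reads may be shared with other AOC copies. No call was made for the 9 cytokinin, 9 xylem, 7 epidermis and 7 clock genes tested with all libraries, nor for the 6, 8, 7 and 6 of them tested with set A alone. MYB36 of the endodermis (4.05 and 2.87 against 6.70 to 16.1 CPM) and OPS of the phloem (13.2 and 9.20 against 22.1 to 36.7 CPM) were each the 1 member of their list called higher with set A alone. The 10 green tissue genes, markers of leaf material, had a median of -1.002 that became -0.36 without uncut replicate 1, and no call. Their summed level was 549 and 297 CPM in uncut and 92.1 to 330 CPM in cut tips, which overlapped. The part of this material in other results was not tested.

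**Figure D4:**
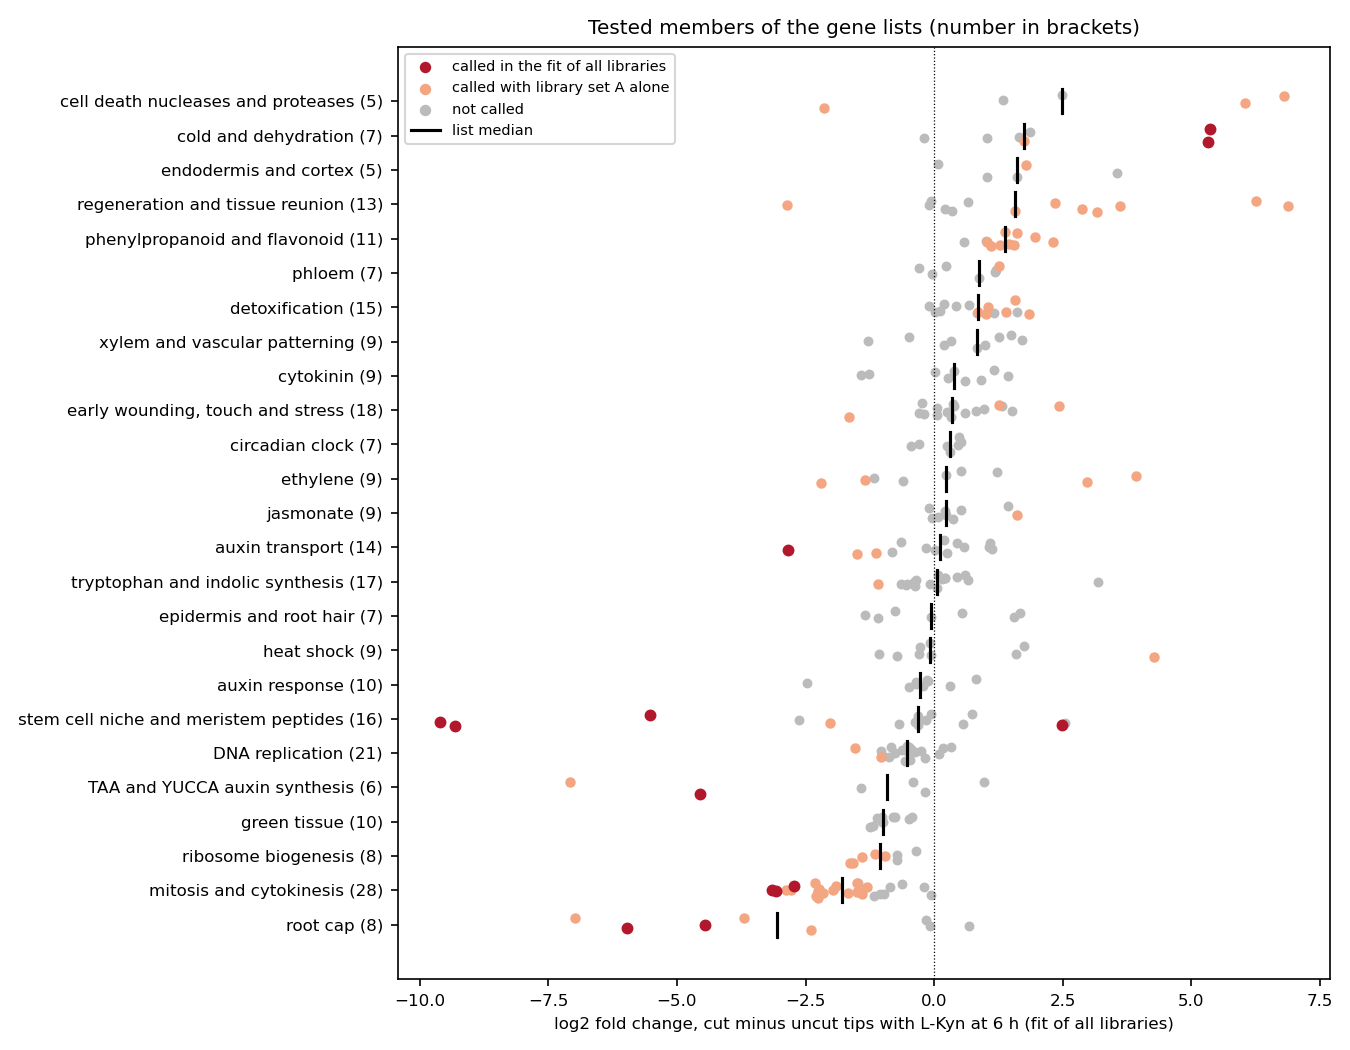
Log2 fold change of cut over uncut tips with L-Kyn at 6 h for each tested member of 25 gene lists, from the fit of all libraries, with the list median as a black bar, genes called in that fit in dark red, genes called with set A alone in orange and others in grey. All mitosis members lie left of 0, the root cap median is -3.05, and RGF3 and RGF2 lie farthest left.

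The same cut without L-Kyn gives a reference for these changes. In set A the mock comparison uses mock cut and mock uncut libraries that the L-Kyn comparison does not use, and 217 genes were called in it (1.47%). All 99 genes called with L-Kyn had the same sign in mock tips, and 15 of the 56 higher and 26 of the 43 lower genes were also called there. For 54 of the higher and 40 of the lower genes the mock groups of set A did not overlap in the same direction, beside 29.6% and 28.0% of all genes tested. Over all 14764 genes 68.47% had the same sign, and the log2 fold changes of the comparisons had a Pearson r of 0.631 across genes, which are not independent replicates. In set A the median log2 fold change of the 56 higher genes was 2.57 with L-Kyn and 1.21 in mock tips. For the 43 lower genes it was -3.10 and -2.08. These genes were picked by their change with L-Kyn, so a larger size on that side is no result.

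A direct test of the difference between the changes with L-Kyn and in mock tips called no gene in the fit of all libraries (edgeR and DESeq2 both 0, 0.0%), with 419 genes at an unadjusted p under 0.05 by edgeR and 447 by DESeq2. With set A alone it called 1 gene, TI1 (0.00677%), with 1021 at an unadjusted p under 0.05. TI1 had 13.0 and 18.9 CPM in the mock uncut libraries of set A and 106 and 84.5 CPM in mock cut tips. Mock uncut replicate 3, outside set A, had 3.54 CPM. For TI1, cut tips with L-Kyn lay above mock cut tips, and uncut tips with L-Kyn lay below mock uncut tips. YUC3 was at 0 and 0.452 CPM in mock cut tips, beside 0.957 to 1.53 CPM with L-Kyn. KIN2 was at 3145 and 3159 CPM in mock cut tips, beside 1850.2 to 2286 CPM with L-Kyn. For TPX2, mock cut tips had 11.1 and 9.03 CPM and mock uncut tips 19.4, 18.9 and 11.0 CPM, and the difference between the changes was -2.45 ± 0.90 on the log2 scale, not called. The median SE of such a difference was 0.70, so a difference of that order in a gene could not be shown here. Endodermal barrier genes were read mainly in 1 mock cut library. CASP1 was at 0.718, 0 and 0.480 CPM in cut tips with L-Kyn and at 0 and 39.7 CPM in mock cut tips.

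**Figure D5:**
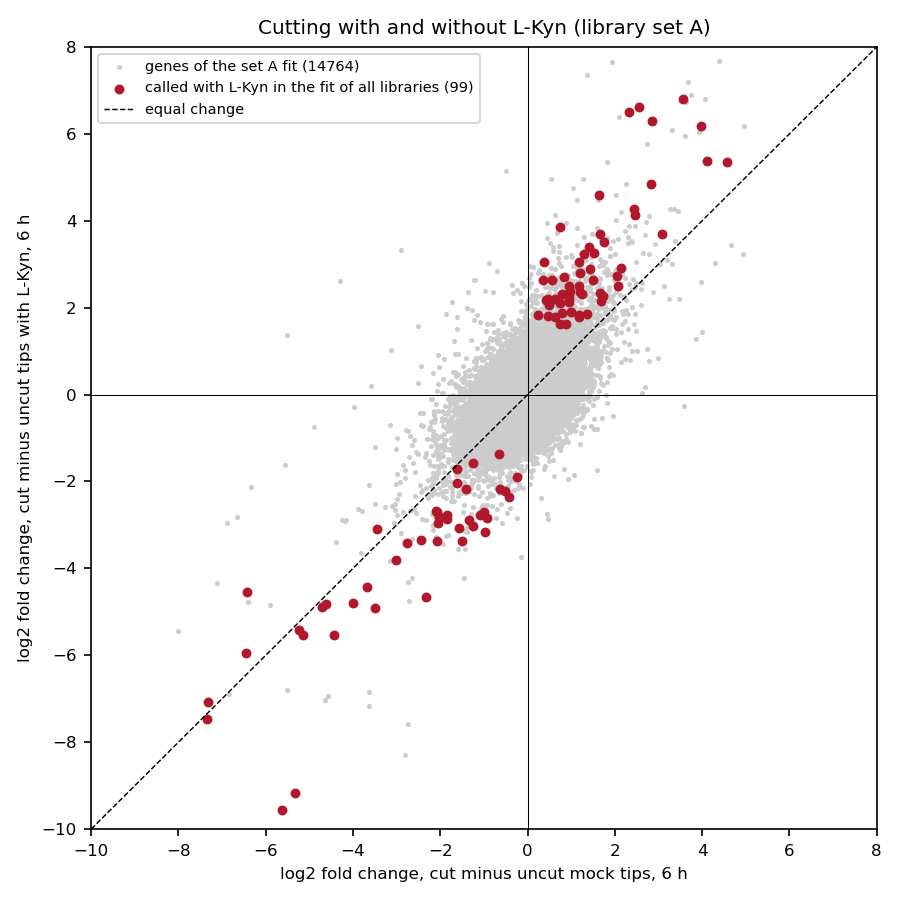
Log2 fold change of cut over uncut tips at 6 h without L-Kyn (horizontal axis) and with L-Kyn (vertical axis) for the 14764 genes of the set A fit, with the 99 genes called with L-Kyn in the fit of all libraries in red and equal change as a dashed line. All 99 red points lie in the lower left or upper right part of the plot.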

How the data were processed

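Libraries were made with a 3′ kit from root tips, per the labels' protocols. The authors deposited raw read counts per locus, and the submitters' processing notes name Bowtie2, HTSeq, DESeq2 and build TAIR10, with tool versions and strand setting not given in the sources used here. Library sizes and tests exclude 3 lines of the table that name no gene. Reads can be shared by near-identical genes (KIN1 and KIN2, glutathione transferases, RBCS, LHCB and AOC genes) or by overlapping genes, which makes their values uncertain.

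Counts were fitted with edgeR's quasi-likelihood test (edgeR 4.0.16, R 4.3.3) over all 18 libraries with a mean for each of 7 groups, TMM factors and edgeR's expression filter by group, and adjusted by Benjamini-Hochberg over 16354 genes at 0.05. The fit was tested on simulated data. Alternatives were set A alone, the 2 groups alone, a set term, RLE factors, DESeq2 1.42.0, other filters, a replicate block and each library left out, and, added after the data were seen, fits without L-Kyn cut 3 h replicate 2 and set A alone without each library. CPM values are counts scaled with TMM factors.

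Symbols, products and upstream sequence came from RefSeq TAIR10.1 (21793 loci matched by locus). Members and the 25 lists (377 genes written, 18 dropped for an unmatched name) were chosen with earlier results of these data known. Genes named are the 15 higher and 15 lower called genes with the largest change, at least 10 CPM in a group, no overlap and a symbol, up to 6 called members of a list, and a panel of 25 genes; not all are reported. Others are said to be chosen after their values were seen or stand with their list's count.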

Additional observations from a re-analysis of the deposited data

Results flagged for a closer look

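With library set A alone, the change of TI1 on cutting was larger with L-Kyn than in mock tips by 4.07 on the log2 scale (SE 0.58), which passed the test of the difference between the changes (edgeR adjusted p = 0.0358). TI1 was higher in 3 of 3 cut libraries with L-Kyn and in 2 of 2 mock cut libraries. In the fit of all libraries the difference was 3.58 ± 1.40 and did not pass. That fit includes mock uncut replicate 3, where TI1 had 3.54 CPM, beside 13.0 and 18.9 CPM in the mock uncut libraries of set A.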

How the results depend on the processing

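The number of genes called on cutting with L-Kyn was 99 with all libraries, 98 with RLE factors, 92 with a stricter filter (mean of 5 CPM), 201 with no filter, 707 with DESeq2, 997 with only the groups compared, 1138 with a set term and without L-Kyn cut 3 h replicate 2, 560 without that library alone, and 1766 with set A alone. Leaving out each of the 5 libraries compared in turn gave 0 to 25 genes in the fit of all libraries. Within set A it gave 2721, 1984 and 667 genes without cut replicate 1, 2 or 3 and 1404 and 195 without uncut replicate 1 or 2, where a lone uncut library is assumed to vary like the other groups. The cause of these moves was not tested. Of the 99 genes, 95 were also called by DESeq2. With a replicate block 11 genes were called. Deviations from the group mean of same-numbered libraries correlated at -0.16 and -0.10. With 2 uncut libraries these deviations mirror each other, so the check cannot show whether the numbers pair the samples. The difference from mock tips gave 0 calls in every setting run other than set A alone, which gave 1. For single genes named, 660 values on cutting kept their side of the threshold over the settings, 171 lost the call and 50 gained it. No value called in either fit changed sign. The 660 include sign changes in genes not called, such as WIND1 (0.22, and -0.27 without uncut replicate 2) and SCR (-0.06, and 0.11 without cut replicate 1). List medians kept their sign in all 19 settings except for the tryptophan, transport, ethylene, epidermis and heat shock lists. The median of the cell death list became 0.78 with no filter and 6.06 with a stricter one, that of the regeneration list 0.66 with a stricter filter, and that of the YUCCA list -0.17 with a stricter filter and -2.44 in set A without uncut replicate 1. With genes at 0 reads in a group set to their bound, no list median changed. Low counts limit WOX5, ERF115, XTH20 and FEZ, whose values lie near the floor of 3 counts in 1 or both groups.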
